A study of Homo sapiens with 4 samples.

Results

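Heme is built by a chain of enzymes that begins and ends in mitochondria, and the transcripts of this route were examined in H1-derived cells on day 8 of a blood differentiation protocol, in which SB431542 was given or left out. The 9 genes were taken by symbol from a list of heme synthesis genes, each from its single row among the 58365 rows of the deposited table. They were ALAS1 and ALAS2, which encode the housekeeping and the erythroid form of the rate-limiting enzyme 5-aminolevulinate synthase, ALAD, UROS, UROD, CPOX, PPOX and FECH, which encode later enzymes, and SLC25A37, which encodes mitoferrin-1, the iron importer of the mitochondrial inner membrane of red cell precursors. All 9 passed the filter on low values, a group mean of 1 FPKM or more (fragments scaled to transcript length and library depth) in either group.

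H1 is an established human embryonic stem cell line. Both groups received activin A and BMP4 for 2 days and then VEGF and bFGF for 3 days. For the last 3 days VEGF and bFGF were given either with SB431542, a small-molecule blocker of TGFβ, activin and nodal type I receptors (SB, 2 libraries), or without it (titled DMSO, 2 libraries). The study describes collecting CD31-positive cells, a step the labels do not mention, and the labels do not say whether the 2 libraries of a group came from separate differentiations, so the p-values measure only the spread between these libraries. The endothelial markers PECAM1 and CDH5 were high in every library, at 153 to 197 FPKM and 202 to 273 FPKM. Low values of single-exon genes stepped by what 1 fragment is worth, which put the depth of SB replicate 2 highest and that of the other libraries, SB replicate 1 lowest, at 75.8% to 93.3% of it.

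In most tissues ALAS1 supplies heme for cytochromes and is held down by heme itself. Red cell precursors switch on ALAS2, a target of GATA1, and add the import of iron through mitoferrin-1, so that heme output can match globin synthesis. The enzymes after the first step are made in all cells. ALAD and UROS each carry a housekeeping and an erythroid promoter, whose transcripts are summed in the gene values used here.

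The contrast between the erythroid and the ubiquitous first step is visible in their start regions, so the 250 bases before each RefSeq start (GRCh38.p14) are shown for this pair. The ALAS2 stretch is chrX:55030978-55031227, minus strand, and the ALAS1 stretch is chr3:52197833-52198082, plus strand, both written 5′ to 3′ on the gene's strand. Capitals mark GATAA (the core read by GATA factors), CACCC (read by erythroid KLF factors) and TGAGTCA (the core read by NF-E2 and AP-1), each searched on both strands. The 2 CACCC matches of ALAS2 overlap by 1 base and no other marked motifs share bases.
ALAS2: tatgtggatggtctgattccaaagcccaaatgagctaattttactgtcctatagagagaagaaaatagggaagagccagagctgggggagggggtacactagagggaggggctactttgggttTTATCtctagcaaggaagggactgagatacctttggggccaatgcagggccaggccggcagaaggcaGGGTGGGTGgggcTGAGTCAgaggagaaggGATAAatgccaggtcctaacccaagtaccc
ALAS1: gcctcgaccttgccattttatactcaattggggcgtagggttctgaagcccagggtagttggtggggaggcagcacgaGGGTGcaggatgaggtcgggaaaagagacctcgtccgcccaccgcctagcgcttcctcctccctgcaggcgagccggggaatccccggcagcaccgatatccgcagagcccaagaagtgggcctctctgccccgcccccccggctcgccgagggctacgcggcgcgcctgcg

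ALAS2 held 2 GATAA matches, 2 CACCC matches and 1 TGAGTCA match, and it held 1 CG dinucleotide. ALAS1 held 0 GATAA, 1 CACCC and 0 TGAGTCA matches and 22 CG dinucleotides, against a median of 11 over all 35116 RefSeq promoters of this length. GATAA was present in 20.4% of all these promoters, CACCC in 54.7% and TGAGTCA in 4.2%. The promoter table held 7 of the 9 genes, and among the other 5 enzymes in it, GATAA was found in CPOX (2 matches) and in 1 of the 2 PPOX promoters. CACCC was found in that same PPOX promoter (3 matches) and in both ALAD promoters (2 matches and 1). TGAGTCA was in none (0) of the promoters of these 5 enzymes. TGCGCA, the core read by the respiratory factor NRF1, is in 6.89% of all promoters and was in none (0) of the windows of these genes. These are matches of letters, not measured binding sites.

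ALAS2 was the gene of the route that differed most between the groups. Its level was 53.3 and 46.4 FPKM in the DMSO libraries and 11.7 and 10.7 FPKM in the SB libraries. Both SB libraries lay far below both DMSO libraries, and the difference was much larger than the spread within either group. The group means were 49.9 ± 4.93 and 11.2 ± 0.668 FPKM (SD, n = 2 each), so the SB mean was 4.46 times lower. On the log2(FPKM + 1) scale the difference was -2.06 (SE 0.17, 95% interval -2.50 to -1.62), with -2.10 within replicate number 1 and -2.02 within number 2. The limma adjusted p was 0.0605, so that ALAS2 did not pass the threshold of 0.05. By unadjusted p it stood at place 21 of the 14909 tested genes, next after the 20 that passed, and only 49 genes (0.329%) had a log2 fold change as low. It passed under 3 of 11 alternatives, among them a stricter filter (adjusted p 0.0442) and quantile normalization (adjusted p 0.038), and its limma adjusted p ran from 0.00225 to 0.3 over all of them.

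ALAS2 (ENSG00000158578.18) lies on chromosome X, 55009055 to 55031064, minus strand, on GRCh38. Its 3′ end overlaps APEX2, a DNA repair nuclease on the opposite strand, and the use of strand in counting is not stated. APEX2, looked up for this reason, stood at 11.2 and 10.3 FPKM with DMSO and at 10.7 and 10.03 FPKM with SB (log2 fold change -0.05, limma adjusted p 0.976). For the longest annotated ALAS2 transcript of 2027 nt, 1 fragment is worth 0.0221 to 0.0292 FPKM, so the lowest ALAS2 values rest on about 400 to 485 fragments. In bulk samples such as these, fewer cells with ALAS2 RNA and less ALAS2 RNA per cell cannot be told apart.

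**Figure D1:**
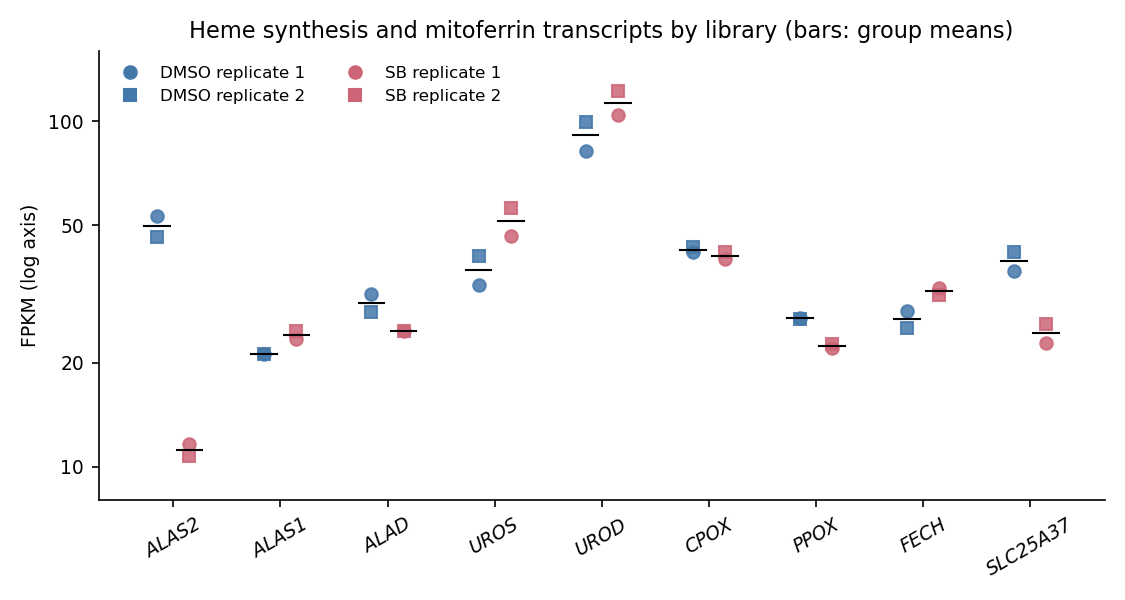
FPKM (log axis) of the 9 genes in the 4 libraries, with a black bar for each group mean. ALAS2 stands at 46.4 and 53.3 FPKM with DMSO and at 10.7 and 11.7 FPKM with SB, while SLC25A37 is 1.62 times lower with SB and the 7 ubiquitous enzymes differ by at most 0.46 on the log2(FPKM + 1) scale.

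ALAS1, the housekeeping form, did not share this difference. It stood at 21.2 and 21.2 FPKM with DMSO and at 23.4 and 24.8 FPKM with SB, so that both SB libraries were slightly higher. The log2 fold change was 0.17 (SE 0.16, 95% interval -0.23 to 0.58, limma adjusted p 0.831), and the interval excludes a difference of the size seen in ALAS2. ALAS1 (ENSG00000023330.14) lies on chromosome 3, 52198086 to 52214327.

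FPKM is scaled to transcript length, so the 2 forms can be set against each other within a library. The ratio of ALAS2 to ALAS1 FPKM was 2.52 and 2.18 with DMSO and 0.498 and 0.432 with SB. The erythroid form thus exceeded the housekeeping form in both DMSO libraries and was below it in both SB libraries. ALAS2 made up 71.6% and 68.6% of the FPKM of both forms with DMSO and 33.3% and 30.2% with SB. Their sum was 74.5 and 67.6 FPKM with DMSO and 35.0 and 35.5 FPKM with SB. On the log2(FPKM + 1) scale, ALAS2 minus ALAS1 was 1.19 ± 0.141 with DMSO and -1.04 ± 0.136 with SB (SD, n = 2 each), a difference of -2.23. An exact two-sided permutation test of this value gave p = 0.33, the smallest that 2 against 2 libraries allow.

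Against all 7 ubiquitous enzymes (ALAS1, ALAD, UROS, UROD, CPOX, PPOX and FECH) ALAS2 stood higher with DMSO and lower with SB. ALAS2 minus the mean of these enzymes on the log2(FPKM + 1) scale was 0.61 and 0.37 in the DMSO libraries and -1.56 and -1.76 in the SB libraries. The group means differed by -2.15, with -2.17 and -2.13 within replicate numbers 1 and 2. In both DMSO libraries only UROD was above ALAS2, and in both SB libraries all 7 were. ALAS2 was therefore the second highest (place 2) of the 9 genes in each DMSO library and the lowest (place 9) in each SB library.

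**Figure D2:**
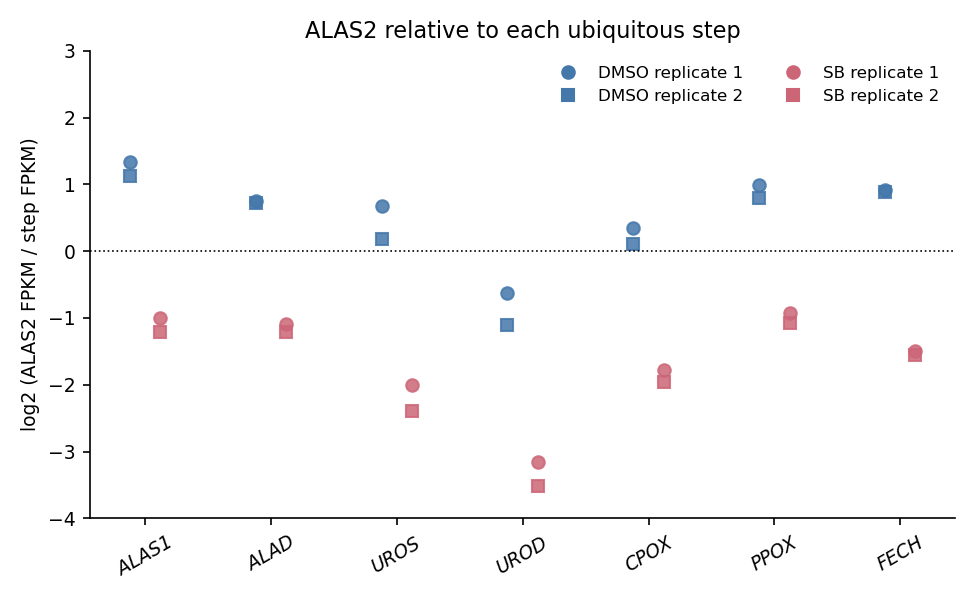
The log2 ratio of ALAS2 FPKM to the FPKM of each ubiquitous enzyme in the 4 libraries, where 0 (dotted line) means equal levels. With DMSO the ratio is above 0 for every enzyme but UROD, and with SB it lies between -3.52 and -0.92.

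The order of the levels was similar in the libraries of a group. With DMSO, UROD was highest (mean 91.0 FPKM), followed by ALAS2, CPOX (42.5 FPKM), SLC25A37 (39.4 FPKM) and UROS (37.1 FPKM). SLC25A37 overlapped UROS and touched CPOX, while CPOX was above UROS in both libraries. ALAD (29.8 FPKM), PPOX (26.9 FPKM) and FECH (26.7 FPKM) came next, the range of FECH overlapping the other 2, and ALAS1 was the lowest. With SB, UROD (113.2 FPKM), UROS (51.3 FPKM), CPOX (40.8 FPKM) and FECH (32.2 FPKM) led without overlap. ALAD, SLC25A37 and ALAS1, with means of 24.1 to 24.7 FPKM, could not be ordered beyond their spread.

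The steps from 5-aminolevulinate to heme showed small differences of both signs, and none (0 of 6) passed the adjustment. ALAD, which condenses 5-aminolevulinate into porphobilinogen, stood at 31.7 and 28.0 FPKM with DMSO and at 24.8 and 24.7 FPKM with SB (log2 fold change -0.26, 95% interval -0.68 to 0.16, limma adjusted p 0.743). Its libraries did not overlap, yet the gap of 3.22 FPKM was of the order of the spread between the DMSO libraries. ALAD (ENSG00000148218.15) lies on chromosome 9, 113386317 to 113401333.

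UROS, which closes the porphyrin ring, had the largest positive difference of the 9 genes. Its level was 33.5 and 40.8 FPKM with DMSO and 46.6 and 56.1 FPKM with SB. The SB libraries were higher in each replicate number, by 0.46 and 0.45 on the log2(FPKM + 1) scale (log2 fold change 0.46, 95% interval -0.05 to 0.97, limma adjusted p 0.56). UROD, which trims the side chains of the ring, was the most abundant transcript of the route. It stood at 82.2 and 99.7 FPKM with DMSO and at 104.0 and 122.4 FPKM with SB (log2 fold change 0.31, 95% interval -0.18 to 0.81, limma adjusted p 0.727). In both genes replicate 2 was higher than replicate 1 in each group, and the gap between replicates was of the order of that between groups. UROS (ENSG00000188690.12) lies on chromosome 10, 125784980 to 125823248, and UROD (ENSG00000126088.13) on chromosome 1, 45012147 to 45015575.

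CPOX and PPOX, the oxidases that follow, and FECH, which inserts iron, differed by at most 0.26 in size on the log2(FPKM + 1) scale. CPOX stood at 41.8 and 43.2 FPKM with DMSO and at 39.8 and 41.8 FPKM with SB (log2 fold change -0.06, 95% interval -0.46 to 0.34, limma adjusted p 0.966), with the groups apart by only 0.0007 FPKM. PPOX was lower with SB, at 26.9 and 26.8 FPKM against 22.1 and 22.7 FPKM (log2 fold change -0.25, 95% interval -0.65 to 0.15, limma adjusted p 0.731). FECH was higher with SB, at 28.2 and 25.2 FPKM against 32.8 and 31.5 FPKM (log2 fold change 0.26, 95% interval -0.16 to 0.68, limma adjusted p 0.74). The row of CPOX (ENSG00000080819.6) spans 98521132 to 98593723 on chromosome 3, far more than the gene covers in GENCODE 29, so its level may include reads of a neighbouring transcript. PPOX (ENSG00000143224.17) lies on chromosome 1, 161166410 to 161178013, and overlaps B4GALT3, a galactosyltransferase on the opposite strand (log2 fold change 0.14, limma adjusted p 0.906). FECH (ENSG00000066926.10) lies on chromosome 18, 57548283 to 57586772.

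SLC25A37 was the other gene of the 9 that was lower with SB at an unadjusted p under 0.05 (0.0123). It stood at 37.0 and 41.8 FPKM with DMSO and at 22.8 and 25.9 FPKM with SB. Both SB libraries lay below both DMSO libraries by more than the spread within either group. The means were 39.4 ± 3.38 and 24.4 ± 2.25 FPKM (SD, n = 2 each), 1.62 times lower with SB. The log2 fold change was -0.67 (SE 0.17, 95% interval -1.12 to -0.22), with -0.68 and -0.67 within replicate numbers 1 and 2, and the limma adjusted p was 0.31. Of all tested genes, 5.04% had a log2 fold change as low, so its difference was far less unusual among genes than that of ALAS2. SLC25A28, which encodes mitoferrin-2, the form found in most tissues, stood at 20.8 and 18.4 FPKM with DMSO and at 18.4 and 17.4 FPKM with SB (log2 fold change -0.12, limma adjusted p 0.914). The ratio of SLC25A37 to SLC25A28 FPKM was 1.78 and 2.27 with DMSO and 1.23 and 1.49 with SB. SLC25A37 (ENSG00000147454.13) lies on chromosome 8, 23528805 to 23575463.

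Counted together, 0 of the 9 genes passed the limma adjusted p of 0.05, against 0.134% of all 14909 tested genes. At an unadjusted p under 0.05, 2 genes differed (ALAS2 and SLC25A37), against 9.96% of all genes. A log2 fold change of at least 1 in size was reached by ALAS2 alone (1 of 9), against 3.72% of all genes. The SB and DMSO libraries did not overlap in any of the 9 genes, 4 of which were higher and 5 lower with SB, against 37.5% of all genes, and for CPOX the gap was negligible. The median log2 fold change was -0.06 over the 9 genes and 0.17 over the 7 ubiquitous enzymes, against 0.04 over all tested genes.

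**Figure D3:**
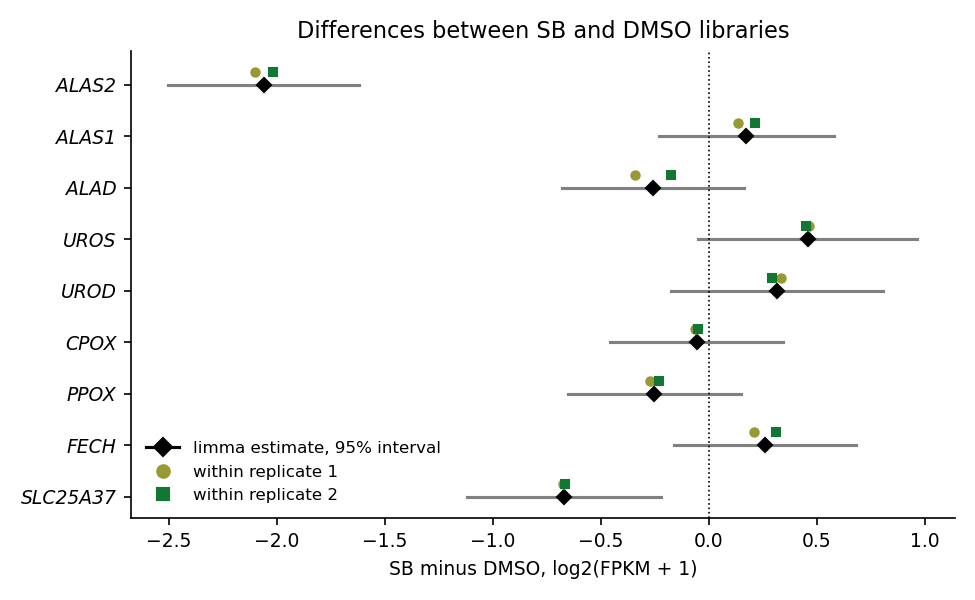
SB minus DMSO on the log2(FPKM + 1) scale for the 9 genes, with the limma estimate and its 95% interval (diamond and line) and the value within each replicate number (circle, number 1, and square, number 2). The intervals of ALAS2 (-2.50 to -1.62) and SLC25A37 (-1.12 to -0.22) lie below 0, and those of the 7 ubiquitous enzymes span it.

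The remaining heme and iron genes were read from fixed lists to place these values in the wider pathway. Of 47 tested genes in the lists, 0 passed the limma adjustment, 4 were higher and 1 lower at an unadjusted p under 0.05, and the libraries did not overlap in 15. Over all tested genes these shares were 0.134%, 9.96% and 37.5%, so the lists were near the background. The median log2 fold change of the 47 genes was 0.08, close to that of all genes.

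Among mitochondrial carriers and porphyrin transporters (11 tested, median 0.03), the smallest p-values belonged to ABCB6, a porphyrin transporter (12.4 and 18.1 FPKM on average with DMSO and SB, log2 fold change 0.52, limma adjusted p 0.487), and to TSPO, an outer-membrane protein that binds porphyrins (78.1 and 60.8 FPKM, -0.36, limma adjusted p 0.565). SLC25A38, which imports the glycine used by both synthases, had a log2 fold change of 0.31 (limma adjusted p 0.659). Iron uptake and storage genes (14 tested, median 0.07) included SLC40A1, the iron exporter ferroportin, at 14.3 and 14.5 FPKM with DMSO and 20.7 and 21.4 FPKM with SB (log2 fold change 0.52, limma adjusted p 0.376). TFRC, the transferrin receptor through which red cell precursors take up iron, overlapped between the groups (28.0 and 39.5 FPKM with DMSO, 26.4 and 34.0 FPKM with SB). SLC39A14, a metal importer, and PCBP1, an iron chaperone, did not overlap between groups (log2 fold changes -0.32 and 0.32, limma adjusted p 0.717 and 0.747). Iron-sulfur cluster genes (10 tested) had a median of 0.09, with HSPA9, the mitochondrial chaperone, having the smallest p (0.47, limma adjusted p 0.55), and with LYRM4, an assembly factor, at 0.26 (limma adjusted p 0.762).

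Heme export, breakdown and sensing genes (11 tested, median 0.09) held the largest difference of the lists. ABCG2, an exporter of porphyrins and drugs, stood at 4.68 and 5.68 FPKM with DMSO and at 16.1 and 15.3 FPKM with SB. It was 3.03 times higher with SB, with clearly separate groups (log2 fold change 1.44, limma adjusted p 0.0969). HMOX1, the inducible heme oxygenase that degrades heme, stood at 14.9 and 13.5 FPKM with DMSO and at 22.9 and 24.1 FPKM with SB (log2 fold change 0.69, limma adjusted p 0.27). HEBP1, a heme-binding protein, was lower in both SB libraries (46.6 and 34.0 FPKM on average, -0.44, limma adjusted p 0.47). HMOX2, the constitutive oxygenase, overlapped between groups (log2 fold change 0.21, limma adjusted p 0.851).

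**Figure D4:**
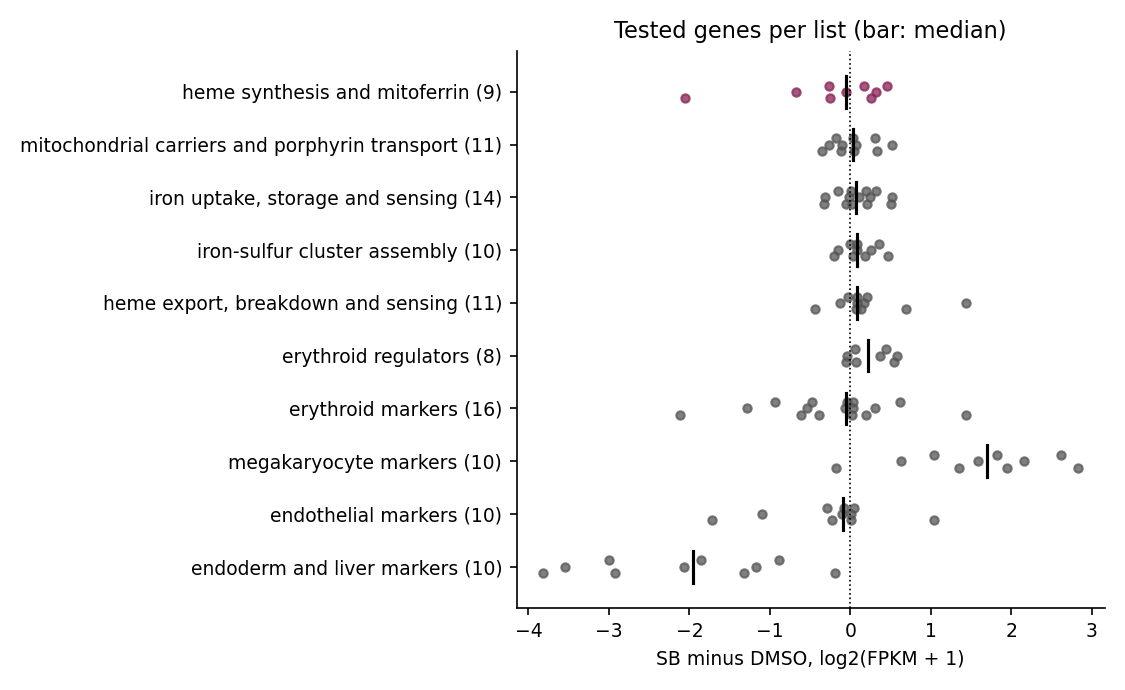
SB minus DMSO on the log2(FPKM + 1) scale for the tested genes of each list, each dot a gene, with the list's median as a bar and the number of genes in brackets. ALAS2 is the leftmost dot of the heme synthesis row at -2.06, the other heme and iron lists centre near 0, and the megakaryocyte markers lie at a median of 1.70. Of the endoderm and liver markers, 5 are included only through their DMSO level, as is 1 erythroid marker. Included only through their SB level are 1 megakaryocyte marker, 1 erythroid marker and 1 gene of heme export, breakdown and sensing.

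Because ALAS2 and SLC25A37 mark red cell precursors, the erythroid genes were read beside them. Of the erythroid factors, GATA1 stood at 42.8 and 40.9 FPKM with DMSO and at 63.0 and 62.7 FPKM with SB (log2 fold change 0.58, limma adjusted p 0.322), so that its difference had the opposite sign to that of its target ALAS2. KLF1, the erythroid KLF factor, overlapped between the groups, at 33.4 and 21.7 FPKM with DMSO and 33.9 and 23.9 FPKM with SB. NFE2 (0.54) and TAL1 (0.37) had limma adjusted p of 0.433 and 0.622. Over the 8 regulators the log2 fold changes ran from -0.06 to 0.58 with a median of 0.22, and 0 passed the limma adjustment, while 2 had an unadjusted p below 0.05 (9.96% of all genes).

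Erythroid markers had differences of both signs. HBZ, the embryonic zeta globin, stood at 145.7 and 109.5 FPKM with DMSO and at 33.2 and 24.1 FPKM with SB, a difference like that of ALAS2 (log2 fold change -2.12, limma adjusted p 0.091). RHAG, a red cell membrane channel, had a log2 fold change of -1.29 (limma adjusted p 0.169), and TRIM58, a ubiquitin ligase of late red cell precursors, had one of 0.62 (limma adjusted p 0.424). HEMGN, a nuclear protein of blood cells, stood at 2.02 and 2.92 FPKM with SB and at most 0.357 FPKM with DMSO, and since it passed the filter only through the SB libraries its difference gives no support. GYPB and HBG2 had values of 0.20 and -0.04. Of 16 tested erythroid markers 0 passed the limma adjustment, 2 were higher and 5 lower at an unadjusted p under 0.05 (9.96% of all genes), and the median was -0.06. Their summed level was 1758 and 2126 FPKM with DMSO and 1463 and 1788 FPKM with SB, and without globins 225 and 253 FPKM against 211 and 257 FPKM. Markers of late red cells were near 0 throughout, with SLC4A1 at most 0.396 FPKM and AHSP at most 0.328 FPKM and listed at 0 in both SB libraries.

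Marker lists of other lineages were read in the same way. The 10 megakaryocyte markers summed to 265 and 256 FPKM with DMSO and to 662 and 759 FPKM with SB. Without overlap and higher were 9 of them (37.5% of all genes did not overlap). This count includes PPBP (mean 0.926 FPKM with DMSO and 12.65 FPKM with SB). It passed the filter only through the SB libraries, so its difference gives no support. PF4 stood at 32.6 and 49.7 FPKM with DMSO against 198.8 and 322.0 FPKM with SB (limma adjusted p 0.097). The endoderm and liver markers summed to 291 and 332 FPKM with DMSO and to 30.7 and 34.2 FPKM with SB, and 5 of the 10 tested passed the filter only through the DMSO libraries. APOA1, AFP, TTR and APOA2 passed the limma adjustment and were lower with SB (adjusted p 0.0201 to 0.0365). The 10 endothelial markers summed to 2502 and 2078 FPKM with DMSO and to 2430 and 2062 FPKM with SB, with a median log2 fold change of -0.09. A log2 fold change of at least 1 in size was reached by 3 of them (3.72% of all genes). ENG (-1.72, limma adjusted p 0.0986) and ROBO4 (-1.09, limma adjusted p 0.135) were lower with SB, and CLDN5 was higher (1.04, limma adjusted p 0.318). The 6 tested leukocyte markers had a median of 1.40, and the cardiac and mesenchymal markers summed to 316 and 274.5 FPKM with DMSO and to 119 and 116 FPKM with SB. The 20 housekeeping genes had a median of 0.13. The part of these cell types in the ALAS2 values was not tested.

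The genes whose pattern over the 4 libraries was most like that of ALAS2 were sought by the distance between log2(FPKM + 1) profiles, each centred on its own mean. The 5 closest of all tested genes were TPPP3, a tubulin-binding protein (distance 0.103), HAND1, a factor of extraembryonic and cardiac mesoderm (0.137), FCN3, a lectin of the complement system (0.168), KRT19, an epithelial keratin (0.209), and GPC3, a glypican of fetal liver and mesoderm (0.229). HBZ was at place 7 (0.286). FCN3 was the most abundant of the 5, at 229 and 219.6 FPKM with DMSO and 62.0 and 53.1 FPKM with SB, and TPPP3 was the least, at 6.89 and 5.61 FPKM with DMSO and 0.80 and 0.80 FPKM with SB. Their log2 fold changes ran from -1.95 to -2.06, with limma adjusted p of 0.0642 to 0.0807, none (0) of them past the threshold. With 4 libraries the closeness mainly reflects a shared difference between the groups. The places also depend on the added 1 FPKM, which shrinks differences at low values, and other pseudocounts were not tried for this ranking. TPPP3, with an SB mean of 0.798 FPKM, passed the filter only through the DMSO libraries. Its mean FPKM was 7.83 times lower with SB, against 4.46 times for ALAS2 and 4.45 times for HBZ.

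**Figure D5:**
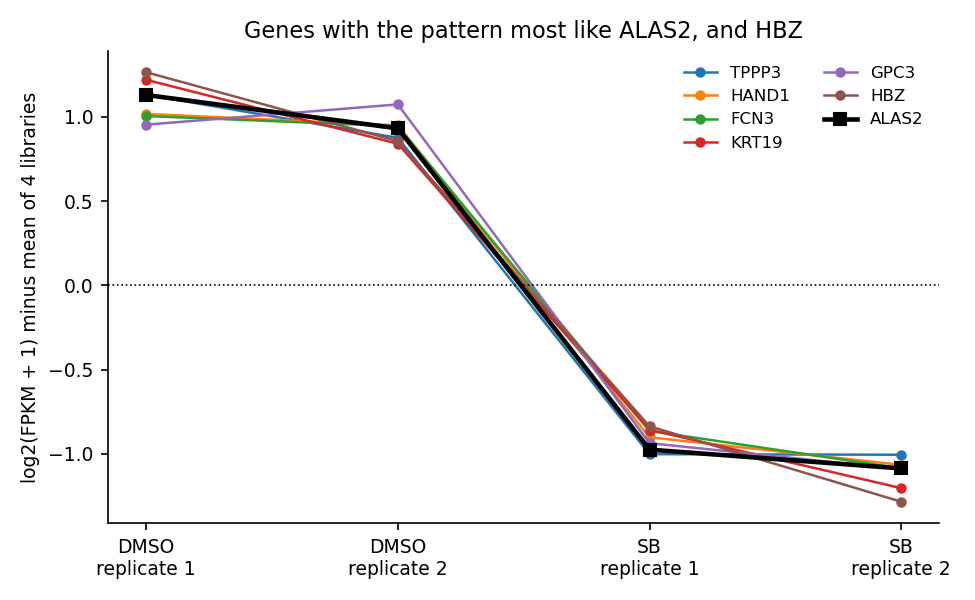
log2(FPKM + 1) of ALAS2 (black), of the 5 genes nearest to it and of HBZ in each library, after subtracting each gene's mean over the 4 libraries. All 7 lines lie above 0 in both DMSO libraries and below 0 in both SB libraries, and lines join libraries only to guide the eye.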

How the data were processed

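Total RNA of 4 libraries (2 DMSO, 2 SB, grouped by sample title) was sequenced after Illumina TruSeq preparation by a service company. The authors deposited FPKM values with 1 column per library. Per the labels, the submitters' processing notes name BWA, Bowtie and RSEM and the build hg19. The row names, however, hold GRCh38 positions: 95.5% of identifiers, version included, were in GENCODE 29, and 99.8% of these at the same place, once starts were counted from 1. Annotation release, strand use and scaling between libraries are not given in the sources used here. The depths were read from single-exon genes, of which 94.4% to 95.3% with few fragments lay within 0.05 fragments of a whole number, and cover counting error only.

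Values were transformed to log2(FPKM + 1), which understates differences of genes with low values. The 14909 genes whose mean reached 1 FPKM in either group were fitted with limma 3.58.1 in R 4.3.3 (empirical Bayes with trend, group as the only term), with two-sided p-values adjusted by Benjamini-Hochberg over all of them. Alternatives were another pseudocount, other filters, quantile and upper-quartile scaling, no trend, the replicate number as a block and each library left out. Named are the 9 genes, genes passing the test and up to 3 genes per heme, iron or erythroid list by smallest p without overlap, a few cell markers and the 5 genes most like ALAS2. APEX2, B4GALT3, SLC25A28, TFRC, HMOX2, GYPB, HBG2, SLC4A1, AHSP and TRIM58 were added for their role after their values were seen. PPBP, ENG, ROBO4 and CLDN5 were added because of their values. Some listed genes are not reported here by name. The members and lists were chosen with earlier results of these data known. Promoters are from RefSeq.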

Additional observations from a re-analysis of the deposited data

How the results depend on the processing

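ALAS2 kept its direction under all 11 alternatives to the fit, with log2 fold changes of -2.16 to -1.96 when single libraries were left out (limma adjusted p 0.145 to 0.28; the lone library of a group is then assumed to vary like the others). It passed the threshold when 2 or more libraries had to reach 5 FPKM (-2.06, adjusted p 0.0442) and under quantile normalization (-2.095, adjusted p 0.038), which made 1 of the 9 genes called in each case. Adjusted p over all alternatives ran from 0.00225 to 0.3, the highest without a filter, where 29447 rows were tested and 0 genes passed. ALAS2 minus the ubiquitous enzymes ran from -2.27 to -2.03 without single libraries and stayed within the spread between replicates under the other settings.

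The titles share replicate numbers, but with 2 pairs nothing establishes that equal numbers were processed together. The deviations from the group means correlated at 0.528 across genes between libraries of equal number, a value that is the same for both numbers by construction. With the replicate block, 1564 genes passed in place of 20, among them 4 of the 9: ALAS2 (-2.06, adjusted p 0.00225), SLC25A37 (adjusted p 0.0145), UROS (0.0277) and UROD (0.0439). So did 8 of the other heme and iron genes, against 0 without the block. Without single libraries, 0 to 14 genes passed (0 without DMSO replicate 1, 14 without DMSO replicate 2, 10 without SB replicate 1 and 9 without SB replicate 2), 0 of the 9 and 0 of the other heme and iron genes. None (0) of 88 values of the other 8 genes over these alternatives changed sign.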
